A study of Mus musculus with 6 samples.

Results

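The RNAs described here are 9 long noncoding RNAs of the mouse brain: Malat1, Neat1, Meg3, Rian, Mirg, Miat, Snhg11, Gas5 and Snhg1. They form a list of gene names, drawn up with earlier results of these data known, and a value could be given to 7 of the 9, among 15441 gene identifiers with a value in some library. RNA came from the ipsilateral cerebral cortex of male C57/BL6J mice aged 6 to 8 weeks, in which a cortical stroke had been made by photothrombosis, the closure of vessels by light after an injection of the dye Rose Bengal. The brains were taken at day 1, 3, 7, 14 or 28 post-stroke, and the control mice had a sham operation without illumination and were taken at day 7 after it. The RNA of 3 mice was pooled for each group, so there were 6 libraries and 1 library per group. Without replicates no p-value is given, and all 5 comparisons share the same control library. The libraries were poly(A)-selected and strand-specific. The values are FPKM, fragment counts scaled to transcript length and library size, as the authors deposited them, with 13263 to 13987 genes listed per library. They carry no read counts, and library depth is not known from them.

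Long noncoding RNAs do much of their known work in the nucleus. Malat1 is held in nuclear speckles, the stores of splicing factors, and Neat1 is the scaffold of paraspeckles. Meg3, Rian and Mirg lie one after the other in the imprinted Dlk1-Dio3 region, are read from the maternal chromosome, and carry small RNAs within them. Miat is a nuclear RNA abundant in neurons. Snhg11, Gas5 and Snhg1 are host genes, whose introns are cut into small nucleolar RNAs (snoRNAs), the guides that direct chemical marks on ribosomal RNA, while the spliced remainder of Gas5 and Snhg1 is known to be removed by nonsense-mediated decay when it is translated.

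The tables hold 1 value for each transcript start, transcript end or splicing event of an assembled locus, and each locus carries 1 Ensembl identifier. Only Rian and Mirg were listed under their own identifiers. The loci of 5 others were found by position and strand (mouse genome build mm10, GENCODE M21 annotation), each as a single locus filed under a small RNA that lies inside the long one. Meg3 was filed under the microRNA gene Mir770, Miat under the short RNA Gm27357, Snhg11 under the snoRNA Gm25129, Gas5 under the snoRNA Gm25789, and Snhg1 under the snoRNA Snord22. All of the FPKM of these 5 loci came from events that overlap the annotated span of the long RNA on its strand. This search by position was added after the tables were seen. The 2 sequences below show what such an identifier names: the first is a snoRNA of only 76 bases, although the locus filed under it runs from 161034607 to 161038539 on chromosome 1. Capitals mark the letters TGATGA and CTGA, the cores of the C and D boxes that define this class of snoRNA, and in the microRNA they mark the seed, bases 2 to 8.
Gm25789, the snoRNA inside Gas5 (chr1:161038308-161038383, plus strand, GRCm38): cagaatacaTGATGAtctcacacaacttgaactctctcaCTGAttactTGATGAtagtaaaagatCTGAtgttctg
mmu-miR-770-5p, the microRNA inside Meg3 (chr12:109563710-109563731, plus strand, GRCm38): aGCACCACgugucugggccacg
The values given for Gas5 and Meg3 are those of loci assembled over the long transcripts. Reads of a small RNA and of its host cannot be told apart where they overlap, although a poly(A)-selected library is not made to hold the small RNAs.

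Malat1 and Neat1 had no value. Malat1 (chromosome 19, 5795690 to 5802672, minus strand) and Neat1 (chromosome 19, 5824708 to 5845478, minus strand) lie close together, and on their strand none of the 6 libraries listed any event. The longest annotated transcript of each, 6983 and 20771 bases, has a single exon, and each gene also has an annotated spliced transcript, with up to 2 and 4 exons. Among protein-coding genes whose transcripts are all single-exon, 38 of 1331 (2.85%) were listed, against 13659 of 20620 (66.2%) of those with a spliced transcript. The reason why Malat1 and Neat1 are not listed was not tested, and their level is not known from these tables. The only event in either span was on the opposite strand, a transcript end of Gm37376 at 4.22 FPKM in the day 7 library.

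The 7 measured RNAs spanned a wide range of levels, in nearly the same order in each library. In the control, Snhg11 (215 FPKM) and Meg3 (214 FPKM) stood at ranks 125 and 126 among 13267 listed genes, and Rian (99.1 FPKM) at rank 403. Miat (39.4 FPKM), Mirg (14.8 FPKM), Gas5 (13.8 FPKM) and Snhg1 (4.75 FPKM) followed. Across the 6 libraries the highest value of each RNA was between 1.28 times (Snhg11) and 2.56 times (Snhg1) its lowest. Snhg1 was the lowest of the 7 in all 6 libraries. Snhg11 was the highest in 5 of them, and Meg3 at day 3. Gas5 passed Mirg at day 1, day 7 and day 14 and also passed Miat at day 14. With 1 library per group the spread of a level is unknown, so it cannot be said which neighbours in this order differ.

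**Figure D1:**
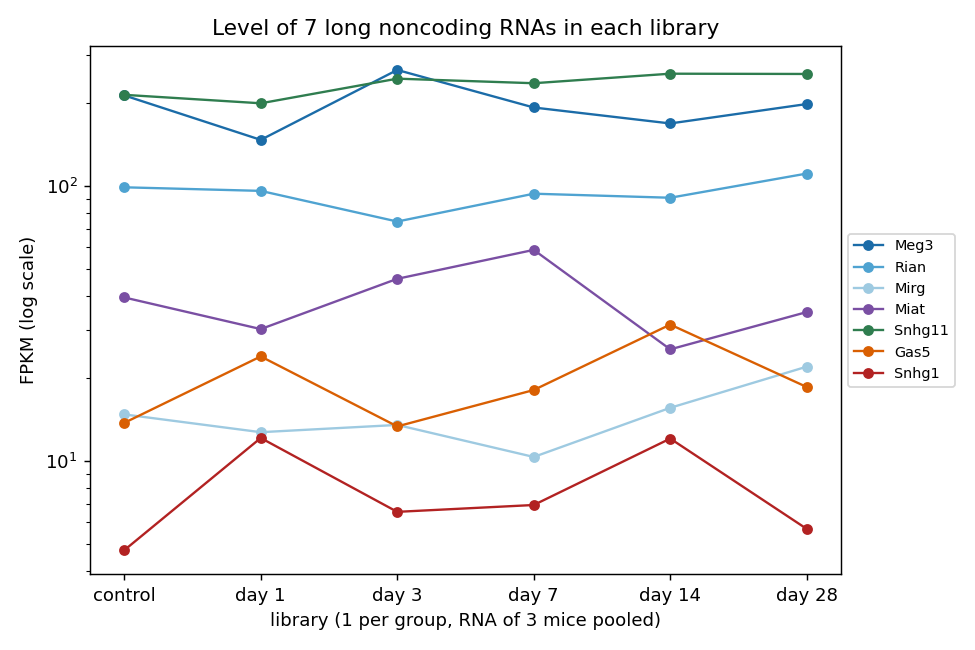
FPKM (log scale) of the 7 measured long noncoding RNAs in the control and the 5 post-stroke libraries, 1 point per library and no error bars because each group has 1 library. Snhg11 and Meg3 lie between 147 and 265 FPKM throughout, while Gas5 and Snhg1 peak at day 1 and day 14.

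Levels were compared with the control as log2((FPKM + 0.1)/(control FPKM + 0.1)) over genes with at least 1 FPKM in 1 of the 2 libraries, and a log2 ratio of 1 or more in size is called a 2-fold difference. Only Gas5 and Snhg1 reached it. At day 1, 1 of the 7 was 2-fold higher and 0 were 2-fold lower, beside 5.11% higher and 4.48% lower of all genes compared. At day 14, 2 of the 7 were 2-fold higher and 0 lower, beside 8.97% and 6.92% of all genes. None of the 7 reached 2-fold in the other libraries. There 8.54% of all genes were higher and 2.53% lower at day 3, 8.53% and 2.12% on day 7, and 3.68% and 2.79% on day 28. The median log2 ratio of the 7 was -0.10, 0.20, 0.14, 0.08 and 0.25 on days 1, 3, 7, 14 and 28, and that of all genes 0.01, 0.03, 0.03, 0.10 and 0.03.

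**Figure D2:**
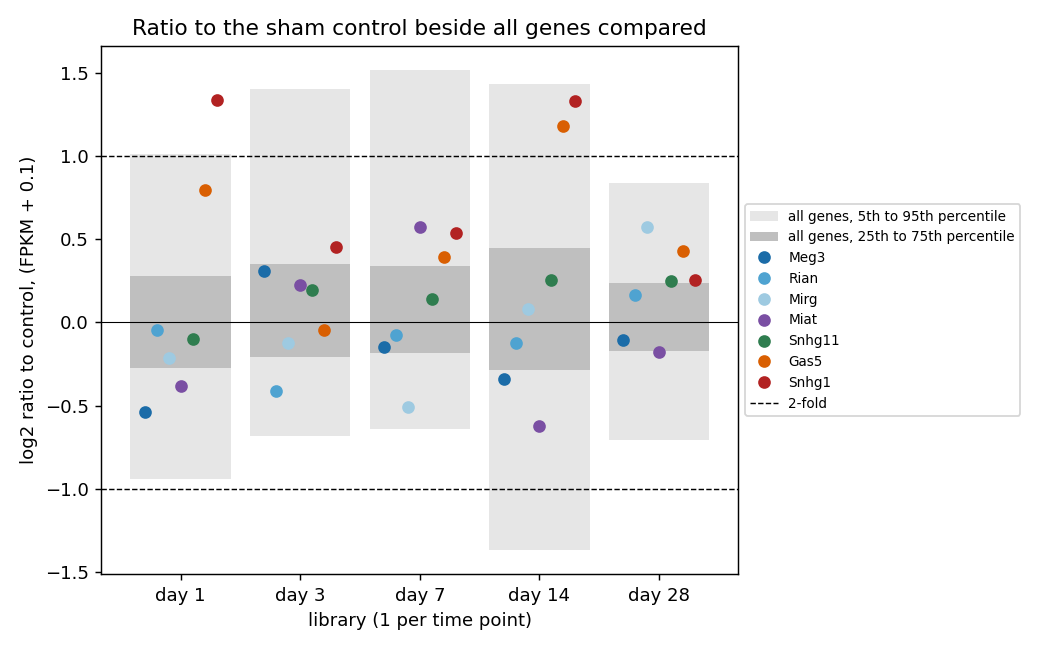
Log2 ratio to control of each of the 7 RNAs (points) at each day, over the range of all genes compared (light grey, 5th to 95th percentile; dark grey, 25th to 75th; dashed lines, 2-fold). Snhg1 at day 1 (1.34) is the only point above the 95th percentile (1.01), and Gas5 (1.18) and Snhg1 (1.33) at day 14 lie above the 2-fold line but below the 95th percentile (1.44).

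Snhg1, a host of 8 annotated snoRNAs (chromosome 19, 8723475 to 8726443, plus strand), had 4.75 FPKM in the control and 12.1, 6.55, 6.93, 12.1 and 5.67 FPKM on days 1, 3, 7, 14 and 28. All 5 post-stroke libraries were above the control, and those of day 1 and day 14 stood apart from the rest. The log2 ratio was 1.34 at day 1, where 96.8% of genes had a lower or equal ratio, and 1.33 at day 14, where 94.3% did. At day 3, 7 and 28 it was 0.46, 0.54 and 0.25.

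Gas5, a host of 10 annotated snoRNAs that was first found in cells whose growth had been arrested (chromosome 1, 161034422 to 161038539, plus strand), had 13.8 FPKM in the control and 24.0, 13.4, 18.2, 31.4 and 18.6 FPKM on days 1, 3, 7, 14 and 28. The same 2 libraries were highest, day 14 before day 1, and day 3 did not exceed the control. The log2 ratio was 0.80 at day 1 (92.6% of genes had a lower or equal ratio) and 1.18 at day 14 (93.0%), against -0.04, 0.39 and 0.43 at day 3, 7 and 28. Over the 5 ratios Gas5 and Snhg1 differed by 0.30 on average in size on the log2 scale. By that measure Gas5 ranked 89 in nearness to Snhg1, and Snhg1 ranked 305 in nearness to Gas5, among 10169 genes with at least 1 FPKM in every library.

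In the day 1 and day 14 libraries the ratio to control also depended on transcript length over all genes. Spearman's rho between the log2 ratio and the length of the longest annotated transcript was -0.26 at day 1 and -0.42 at day 14 across genes, and between -0.09 and 0.01 at day 3, 7 and 28; genes are not independent replicates. Gas5 (longest transcript 2556 bases) and Snhg1 (2728 bases) are the shortest of the 7 RNAs. Meg3 (14548 bases) and Miat (9163 bases), the longest, had the lowest ratios in both of these libraries. When the median log2 ratio of genes of like length was taken off, Snhg1 stood at 1.27 at day 1 and 1.16 at day 14, and Gas5 at 0.73 and 0.96, below 2-fold. At day 14 the same step moved Meg3 from -0.34 to 0.03 and Miat from -0.63 to -0.25. The part of transcript length in these differences was not tested further.

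**Figure D3:**
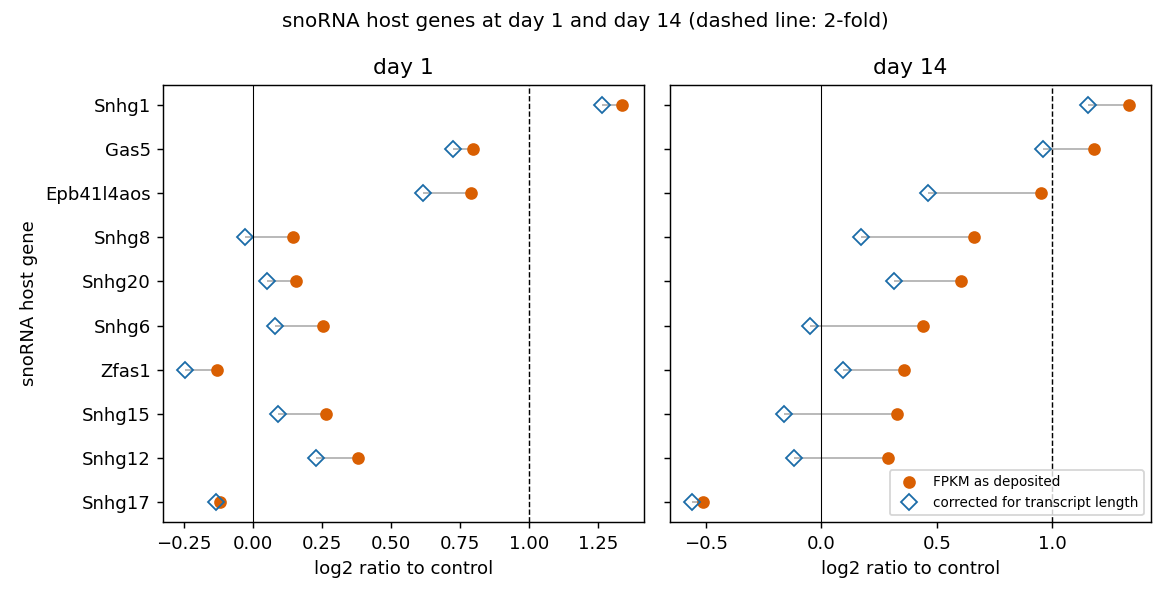
Log2 ratio to control of 10 snoRNA host genes listed in all 6 libraries, at day 1 (left) and day 14 (right), from FPKM as deposited (filled circles) and after the median of genes of like length was taken off (open diamonds). Among the 10 shown, Snhg1, Gas5 and Epb41l4aos lead at both days. At day 14 the correction moves Epb41l4aos from 0.95 to 0.46 and Snhg8 from 0.66 to 0.17. Snhg11, also a host gene, is not shown, and at day 14 the correction moves it from 0.26 to 0.46.

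Of 18 other snoRNA host genes, 10 had a value and 8 were listed in all 6 libraries. None of the 8 compared was 2-fold different at day 1 or at day 14, with median log2 ratios of 0.21 and 0.40 (0.07 and 0.02 after the length correction), beside 0.01 and 0.10 over all genes. Of all genes compared, 5.11% were 2-fold higher and 4.48% lower at day 1, and 8.97% and 6.92% at day 14. Epb41l4aos had 6.27 FPKM in the control and 10.9 and 12.2 FPKM at day 1 and day 14. Snhg17 was lower, with 2.21 FPKM in the control, 0.971 FPKM at day 3 (log2 ratio -1.11) and 0.671 FPKM at day 28 (-1.59). Snhg20 was higher at day 28, at 21.5 against 11.3 FPKM (0.92). One gene counted as 2-fold higher at day 7, Snhg10, was listed in no other library.

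The proteins that act on these RNAs and on the snoRNAs within them had list medians near those of all genes. Of 14 snoRNA-protein complex and nucleolar genes, 1 was 2-fold higher at day 1, fibrillarin (Fbl, the methyltransferase of C/D snoRNAs), with 19.2 against 7.30 FPKM (log2 ratio 1.39), and none was 2-fold different at the other days, with list medians between -0.03 and 0.16. Of all genes compared, 5.11% were 2-fold higher at day 1. Dkc1, the pseudouridine synthase of H/ACA snoRNAs, stood at 0.75 at day 1, and Gar1, its partner, at 0.71 at day 14. Of 15 nonsense-mediated decay factors none was 2-fold different at day 1, 3, 14 or 28. At day 7, Rbm8a (6.79 against 14.2 FPKM, -1.05) and Upf3b (4.32 against 8.81 FPKM, -1.01) were 2-fold lower, beside 2.12% of all genes compared. The list median at day 7 was -0.03. Eif4a3, the helicase of the exon junction complex, had its largest ratio at day 14 (0.54).

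The start of Snhg1 was not the same in every library. At position 8723475 the tables distinguish transcripts by the length of their first exon. The start with a first exon of 32 bases had 0.83 FPKM (17.5% of the summed starts) in the control and 6.78 FPKM (55.8%) at day 1. The one with a first exon of 715 bases, which runs on through the first intron, had 3.21 FPKM (67.7%) and 3.20 FPKM (26.4%). Of the starts of Snhg1, that of 32 bases differed most from the control in FPKM at day 1. By share, that of 715 bases differed most, by 41.3 percentage points. Starts further 3′ with first exons of 352 and 366 bases were also higher there, at 1.13 and 0.717 FPKM against 0.0078 and 0.042 FPKM, while the start of 150 bases was lower, at 0.0084 against 0.59 FPKM. At day 14 the starts of 32, 715 and 150 bases all stood above the control, at 2.17, 6.53 and 3.22 FPKM against 0.83, 3.21 and 0.59 FPKM. Gas5 showed no such shift: the start with a first exon of 266 bases held between 79.6% (control) and 96.2% (day 28) of the summed starts.

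Start shares are the authors' estimates of transcript abundance from the same reads, so they have 1 value per library. Of all genes with 2 or more starts and at least 1 FPKM of starts in both libraries, 17.5%, 16%, 15.6%, 20.4% and 15.1% had a start whose share differed from the control by 30 percentage points or more on days 1, 3, 7, 14 and 28. Of the 5 RNAs with several starts the count was 1, 2, 2, 2 and 0, which were Snhg1 at day 1, Rian and Mirg at day 3, and Meg3 and Mirg at day 7 and day 14.

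**Figure D4:**
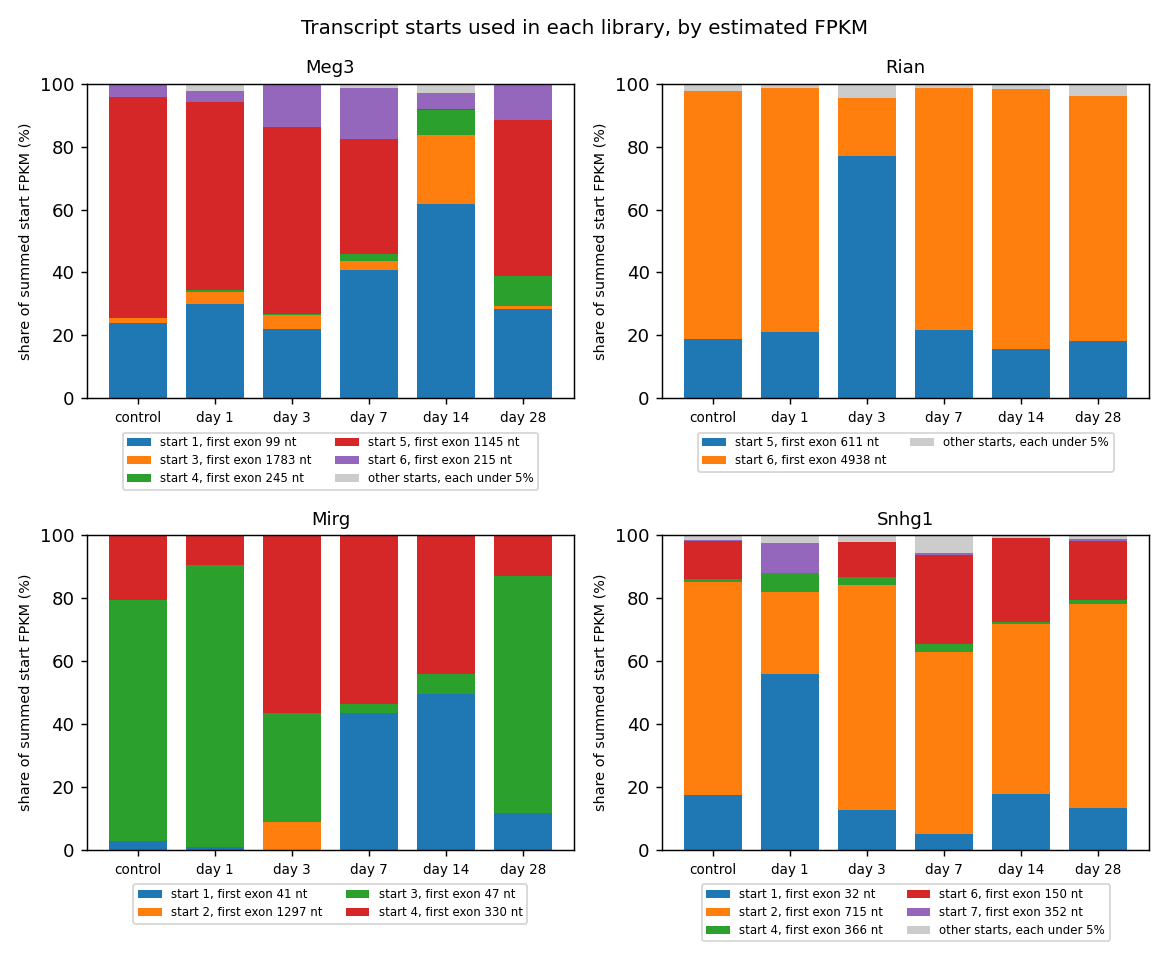
Share of the summed start FPKM (%) taken by each transcript start of Meg3, Rian, Mirg and Snhg1 in each library, with starts numbered from the 5′ end and named by the length of their first exon. The start of Meg3 with a first exon of 1145 bases holds 70.2% in the control and 0.33% at day 14. That of Rian with a first exon of 611 bases holds 77.0% at day 3 and at most 21.8% elsewhere. The summed starts of Meg3 at day 14 and day 28 (127 and 152 FPKM) are below its largest single event (169 and 199 FPKM).

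The promoters of Gas5 and Snhg1 are shown because these 2 RNAs were high in the same libraries, and those of Meg3 because its starts were used unequally. The sequences are from RefSeq (GRCm38.p6) and run from 100 bases before to 50 bases from the annotated start. Capitals mark TGACGTCA, the palindromic cyclic-AMP response element, and TATAAA or its reverse complement TTTATA, the core of the TATA box, searched on both strands; in Meg3 the 2 TATA matches overlap.
Gas5 (chr1:161035066-161035215, plus strand): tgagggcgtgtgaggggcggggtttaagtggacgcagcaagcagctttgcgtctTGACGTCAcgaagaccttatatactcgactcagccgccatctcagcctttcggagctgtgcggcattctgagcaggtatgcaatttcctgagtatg
Snhg1 (chr19:8723387-8723536, plus strand): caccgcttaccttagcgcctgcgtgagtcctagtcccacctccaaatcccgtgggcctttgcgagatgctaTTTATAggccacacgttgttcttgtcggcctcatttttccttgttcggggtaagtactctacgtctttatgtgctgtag
Meg3, first start (chr12:109540896-109541045, plus strand): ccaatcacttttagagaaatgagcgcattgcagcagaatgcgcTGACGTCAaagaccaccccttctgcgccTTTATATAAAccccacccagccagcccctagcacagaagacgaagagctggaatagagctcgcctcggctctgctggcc
Meg3, second start (chr12:109545298-109545447, plus strand): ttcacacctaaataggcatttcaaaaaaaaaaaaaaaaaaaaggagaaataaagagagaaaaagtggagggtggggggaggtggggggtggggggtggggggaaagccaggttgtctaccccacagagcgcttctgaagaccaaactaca
TGACGTCA lies 46 bases before the start of Gas5 and 57 bases before the first start of Meg3, and TATAAA or TTTATA 29 bases before that of Snhg1 and 25 bases before the first of Meg3. In the wider windows of the RefSeq table, TGACGTCA was found in 588 of 32817 promoters (1.79%) and in 2 of the 10 promoters that belong to 8 of the 9 RNAs, and TATAAA in 13.6% and in 2 of 10. Gas5 and Snhg1 share neither of these matches. The main Gas5 start in the tables (161034929) is 237 bases upstream of the RefSeq start shown, which itself held between 0.13% and 1.24% of the summed starts, so the Gas5 match does not lie before the start that these libraries used most. A second RefSeq promoter of Gas5 (161034501 to 161034650) holds neither match. The main start of Snhg1 is 12 bases upstream, and those of Meg3 are 5 and 0 bases away.

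Meg3, the best known of the 3 maternal transcripts and a growth suppressor in cultured cells (chromosome 12, 109541001 to 109571726, plus strand), had 214 FPKM in the control and 147, 265, 193, 169 and 199 FPKM on days 1, 3, 7, 14 and 28. Day 1 was the lowest library and day 3 the highest, and none was 2-fold from the control. The log2 ratios were -0.54, 0.31, -0.15, -0.34 and -0.10. At day 14 and day 28 the value is that of a single splicing event, since the summed starts were lower there, at 127 and 152 FPKM. With summed starts in every library the log2 ratios were -0.75 at day 14, then the lowest library, and -0.49 at day 28.

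The make-up of Meg3 differed more than its level. The start at 109545398, with a first exon of 1145 bases, had 150 FPKM in the control and 88.0, 157, 70.5, 0.415 and 75.4 FPKM on days 1, 3, 7, 14 and 28. The day 14 library stood apart, with next to none of it. The start at 109541001, with a first exon of 99 bases, had 51.1 FPKM in the control and 44.4, 58.4, 79.0, 78.8 and 43.1 FPKM. It held 23.9% of the listed starts in the control and 61.8% at day 14. The listed starts summed to 127 FPKM at day 14 and 152 FPKM at day 28, below the 169 and 199 FPKM of the largest single event. Start shares at both days thus leave out part of the locus and compare less directly with the control. The start at 109542023 with a first exon of 1783 bases had 3.23 FPKM in the control and 27.9 FPKM at day 14, and no more than 12.04 FPKM elsewhere.

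An internal exon of Meg3 of 81 bases (109549291 to 109549371) was included in 80.3% of the FPKM of both forms in the control, and in 47.0%, 66.7%, 68.8%, 41.7% and 53.3% on days 1, 3, 7, 14 and 28. The control was the highest of the 6 libraries, and day 1 and day 14 the lowest. A second exon, of 94 bases (109544948 to 109545041), was included in 90.7% in the control and in 87.5%, 77.4%, 79.7%, 66.6% and 72.3% afterwards. The only listed transcript end, at 109571726, carried 1.72 FPKM in the control and 69.3, 27.2, 33.2, 9.87 and 7.22 FPKM on days 1, 3, 7, 14 and 28. All 5 post-stroke libraries were above the control at that end. The summed starts of Meg3 were 214 FPKM in the control and 147 FPKM at day 1, so the listed end covers only part of its transcripts. A higher value at this end is thus not a higher level of Meg3. At day 1, 3 and 7 most of the FPKM at this end was in transcripts with an exon of 9955 bases (109558640 to 109568594), at 59.3, 14.8 and 23.8 FPKM. That exon holds the hairpin of Mir770, and no such transcript was estimated in the other 3 libraries.

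**Figure D5:**
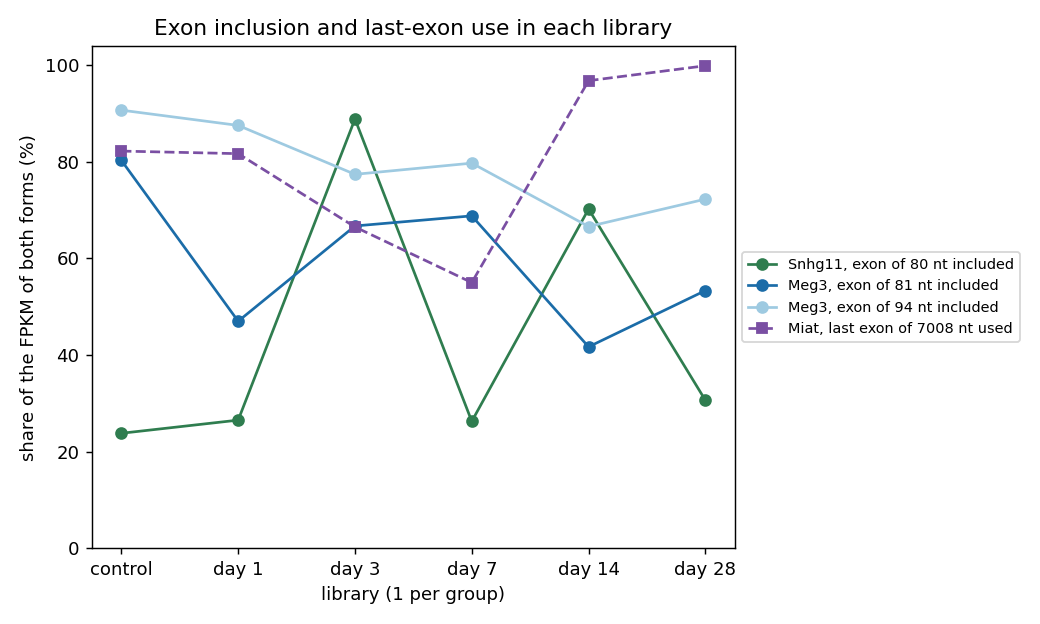
Share (%) of the FPKM of both forms in which an exon was included (Snhg11, 80 bases; Meg3, 81 and 94 bases) or the last exon of 7008 bases was used (Miat), in each of the 6 libraries, 1 value per library. The Snhg11 exon stands at 88.9% at day 3 and 70.2% at day 14 and between 23.8% and 30.6% elsewhere.

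Rian, the next gene along, which holds 13 annotated snoRNAs and 4 microRNAs (chromosome 12, 109603940 to 109661716, plus strand), had 99.1 FPKM in the control and 96.2, 74.4, 93.96, 90.8 and 111 FPKM on days 1, 3, 7, 14 and 28. Day 3 was the lowest library, at a log2 ratio of -0.41, and the others stayed between -0.13 and 0.17. Its 2 main starts lie 21 bases apart, at 109646141 with a first exon of 611 bases and at 109646162 with a first exon of 4938 bases. The second had 78.0 FPKM in the control and 74.5, 13.7, 72.2, 75.2 and 86.6 FPKM afterwards. The first had 18.7 FPKM in the control and 20.2, 57.3, 20.4, 14.2 and 20.4 FPKM. Day 3 was the only library in which the transcript with the spliced, short first exon outweighed the one with the long exon, with 77.0% against 18.4% of the starts.

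Mirg, the last of the 3, holds 14 microRNA hairpins with 26 mature microRNAs in RefSeq (chromosome 12, 109729764 to 109749460, plus strand). It had 14.8 FPKM in the control and 12.8, 13.6, 10.4, 15.6 and 22.1 FPKM on days 1, 3, 7, 14 and 28. Day 7 was the lowest library (log2 ratio -0.51) and day 28 the highest (0.57), where 90.9% of genes had a lower or equal ratio. Its starts differed between libraries. The start at 109743801, with a first exon of 47 bases, had 11.4 FPKM (76.8% of the starts) in the control and 11.4, 4.70, 0.289, 0.996 and 16.7 FPKM on days 1, 3, 7, 14 and 28. This start lies just downstream of the microRNA miR-410, shown here with its seed in capitals for its place beside that start.
mmu-miR-410-3p (chr12:109743764-109743784, plus strand, GRCm38): aAUAUAACacagauggccugu
The start furthest 5′, at 109734981, had 0.41 FPKM in the control and 4.51, 7.74 and 2.57 FPKM on days 7, 14 and 28. Control, day 1 and day 28 were alike in the start they used most, and day 3, 7 and 14 used others.

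The 3 maternal RNAs did not share 1 pattern of ratios. Meg3 was higher than the control at day 3, where Rian was lower (log2 ratio -0.41, but 0.95 from summed transcript ends only). Those ends held only 1.07 FPKM in the control and 2.17 FPKM at day 3. They lie upstream of the main starts of Rian, so they do not measure its main transcripts. Mirg was highest at day 28, where Meg3 was at -0.10. Averaged over the 5 ratios, Meg3 and Rian differed by 0.35, Meg3 and Mirg by 0.44, and Rian and Mirg by 0.30 on the log2 scale. Of 5 protein-coding genes listed for the same imprinted region, Begain had 31.5 FPKM in the control and a lowest value of 21.5 FPKM at day 3 (log2 ratio -0.55), and Wdr25 between 1.14 and 1.94 FPKM. Dlk1 was not listed in the control and had between 0.598 and 1.39 FPKM post-stroke, and the other 2 were listed in no library. Of 22 imprinted protein-coding genes elsewhere in the genome, 14 were compared at each day. Of these, 1, 1, 0, 1 and 0 were 2-fold higher and 1, 0, 0, 3 and 0 lower on days 1, 3, 7, 14 and 28. Over all genes compared, 5.11%, 8.54%, 8.53%, 8.97% and 3.68% were higher and 4.48%, 2.53%, 2.12%, 6.92% and 2.79% lower. Peg10 was the gene higher at day 1 (1.32) and day 3 (1.08). The lower calls of Zdbf2 at day 1 and of Peg10 at day 14 arose because each was not listed there and counted as 0. Nnat, which encodes neuronatin, had 285 against 132 FPKM at day 14 (1.11), while Usp29 (0.636 against 3.69 FPKM, -2.37) and Plagl1 (2.24 against 4.77 FPKM, -1.05) were lower there. After the length correction Nnat stood at 0.71 and Plagl1 at -0.92, below 2-fold, and Usp29 at -2.02.

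Miat (chromosome 5, 112213228 to 112229395, minus strand) had 39.4 FPKM in the control and 30.2, 46.1, 58.7, 25.5 and 34.9 FPKM on days 1, 3, 7, 14 and 28. It was highest at day 7 (log2 ratio 0.57) and lowest at day 14 (-0.63), and no library was 2-fold from the control. All transcripts began at 1 start and used 1 of 2 last exons, of 506 bases (112221369 to 112221874) or of 7008 bases (112213228 to 112220235). The short form had 7.00 FPKM in the control and 5.53, 15.4, 26.4, 0.815 and 0.0367 FPKM afterwards. The long form had 32.4 FPKM in the control and 24.7, 30.6, 32.3, 24.7 and 34.8 FPKM. The excess at day 7 thus lay in the short form, whose share was 45.0% there against 17.8% in the control and 0.105% at day 28.

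Snhg11, whose transcripts are abundant in neurons and which GENCODE M21 lists as protein-coding (chromosome 2, 158375638 to 158386145, plus strand), was the steadiest of the 7. It had 215 FPKM in the control and 200, 246, 237, 257 and 256 FPKM on days 1, 3, 7, 14 and 28, with log2 ratios between -0.10 and 0.26. An exon of 80 bases (158376745 to 158376824) was included in 51.1 FPKM and left out in 164 FPKM in the control. The included form had 53.1, 218, 62.2, 180 and 78.4 FPKM on days 1, 3, 7, 14 and 28, and the other form 147, 27.3, 174, 76.3 and 177 FPKM. Inclusion was thus 23.8% in the control and 26.5%, 88.9%, 26.3%, 70.2% and 30.6% in the post-stroke libraries in order of time. Day 3 and day 14 were the libraries in which the exon was mostly included. Exon and last-exon shares, here and for Meg3 and Miat, were not set beside those of all genes. Whether such differences between single libraries are unusual is therefore not known.

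By the mean difference of the 5 log2 ratios, the 2 genes nearest to each RNA among the 10169 were Ppan and Ier3 for Snhg1, Rem2 and Rogdi for Gas5, Trip4 and Dock10 for Meg3, Nkapd1 and Gpr176 for Rian, Osbpl9 and Mtg2 for Mirg, Lcorl and Cpd for Miat, and Rbm4b and Eml5 for Snhg11. Ppan, which encodes a factor of ribosome assembly, had ratios of 0.96, 0.47, 0.41, 1.22 and 0.28, a mean difference of 0.13 from Snhg1. All the other nearest genes lay between 0.02 and 0.14 from their RNA. All of these ratios share the control library.

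Among 28 other long noncoding RNAs, 15 had a value and 10 were listed in all 6 libraries. Of the 12, 13, 13, 13 and 12 compared on days 1, 3, 7, 14 and 28, 0, 1, 3, 1 and 1 were 2-fold higher and 2, 2, 3, 2 and 2 lower. Over all genes compared, 5.11%, 8.54%, 8.53%, 8.97% and 3.68% were higher and 4.48%, 2.53%, 2.12%, 6.92% and 2.79% lower. Some of the calls among the other long noncoding RNAs come from genes not listed in the control or in that day's library, which counted as 0. H19, an imprinted RNA filed under its microRNA gene Mir675, was not listed in the control or at day 28 and had 0.715, 8.18, 21.5 and 7.05 FPKM at day 1, 3, 7 and 14. Ftx, from the X-inactivation centre, had 1.498 FPKM in the control, 4.96 FPKM at day 7 (log2 ratio 1.66) and 6.65 FPKM at day 28 (2.08). Mir9-3hg, the host of the neural microRNA miR-9, had 16.2 FPKM in the control and 4.38 FPKM at day 3 (-1.86). Tug1 stood at 0.0035 FPKM at day 7 and between 11.5 and 13.3 FPKM in the other libraries. It is 1 of the 3 counted lower at day 7. That near-zero estimate rests on 1 library, and its reason was not tested.

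The proteins of the bodies that Malat1 and Neat1 occupy were listed even where the RNAs were not. Of 16 paraspeckle proteins, 15 had a value in all 6 libraries. None was 2-fold higher at any day, and 0, 2, 0, 1 and 1 were 2-fold lower on days 1, 3, 7, 14 and 28. Hnrnpk, an RNA-binding protein of paraspeckles, had 146 FPKM in the control and 37.0 FPKM at day 14 (log2 ratio -1.97), Nudt21 had 11.5 FPKM and 4.12 FPKM at day 28 (-1.47), and Tardbp 51.7 FPKM and 27.9 FPKM at day 14 (-0.89). Of 21 nuclear speckle and splicing proteins, 3, 2, 0, 2 and 1 were 2-fold higher and 0, 0, 0, 1 and 0 lower. Beside both lists, 5.11%, 8.54%, 8.53%, 8.97% and 3.68% of all genes compared were higher on these days, and 4.48%, 2.53%, 2.12%, 6.92% and 2.79% lower. U2af2, which reads the polypyrimidine tract, had 8.11 FPKM in the control and 23.0, 17.6, 12.8, 28.6 and 42.8 FPKM afterwards. Tra2b, a splicing regulator, had 6.26 FPKM and 22.8, 13.4, 7.33, 17.6 and 12.3 FPKM. Sf3b1 had 37.4 FPKM in the control and 10.3 FPKM at day 14 (-1.85).

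The summed levels of cell type markers differed between the libraries, and in bulk tissue fewer cells of a type and less RNA per cell cannot be told apart. Of 12 neuron markers, 11 were listed in all 6 libraries and Tubb3 in none. Their summed level was 2208 FPKM in the control and between 1700 (day 14) and 2157 FPKM (day 1) post-stroke. Only 1 marker was 2-fold lower at any day, Map2 at day 14 (-2.25), where 6.92% of all genes compared were. Of 9 microglia and macrophage markers 8 were listed in some library and Itgam in none, and they summed to 154 FPKM in the control and 163, 406, 594, 420 and 162 FPKM on days 1, 3, 7, 14 and 28. Of the leukocyte markers 6 were listed in some library, and Cd8a and Ms4a1 in none. The 6 summed to 0.909 FPKM in the control and 17.8, 6.25, 3.99, 16.2 and 2.60 FPKM, and the sum was highest in the 2 libraries where Gas5 and Snhg1 were highest. At day 1 that sum was mostly S100a8 and S100a9, made by neutrophils, at 6.18 and 10.1 FPKM, and they stood at 3.84 and 5.32 FPKM at day 14. Ptprc, the pan-leukocyte antigen CD45, had 1.297 FPKM at day 1, below its 2.64 FPKM at day 3 and 2.34 FPKM at day 7. Ly6c2, a monocyte marker, was not listed at day 1 and had 1.89 FPKM at day 3. Both Ptprc and Ly6c2 were highest at day 14, at 3.40 and 3.56 FPKM. The 8 astrocyte markers summed to 927 FPKM in the control and between 963.5 (day 28) and 1603 FPKM (day 3), led by Gfap with a log2 ratio of 3.02 at day 3. The median log2 ratio of the 8 was negative at day 1 (-0.13) and day 14 (-0.05). Gfap, at 1.94 and 2.15, was the only one 2-fold higher at those days, so the sums do not speak for most of these markers. The oligodendrocyte markers, 6 of 7 listed with Mobp in none, ranged from 1634 (day 28) to 2307 FPKM (day 1) around a control of 1835 FPKM. The 8 endothelial and mural markers stood at 33.4 FPKM in the control, 54.0 FPKM on day 3 and between 29.9 and 38.7 FPKM in the other libraries. The part of these cells in the levels of the 7 RNAs was not tested.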

How the data were processed

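RNA-seq values of 6 libraries (the control and 5 post-stroke times, 1 library each) were used. The authors deposited FPKM per transcript start, transcript end and splicing event of assembled loci on mm10, made from paired reads of 150 bases. The submitters' processing notes name Trimmomatic 0.30, HISAT2 2.0.1 and HTSeq 0.6.1, without their roles here; the tool that assembled and quantified the transcripts is not given in the sources used here. FPKM of assembled transcripts are estimates, so the split of a gene into starts and exons is less certain than its total, and without counts no interval can be given.

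The gene value was the largest of the summed starts, the summed ends and any single event, since each is a lower bound on the locus; the plan had assumed 1 value per gene. Loci filed under a small RNA nested in a longer gene on the same strand (153 loci), whose own identifier was in no library, were given to that gene where it had 1 such locus (148 genes). Snhg14, with several, was left out. Reads of small RNAs and of their hosts cannot be told apart where they overlap.

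Ratios were log2((FPKM + 0.1)/(control FPKM + 0.1)) over genes with at least 1 FPKM in 1 of the 2 libraries, unlisted genes counting as 0, and a size of 1 was the threshold. The length correction took off the median log2 ratio in 20 bins of the longest GENCODE M21 transcript. Start and exon shares, and the limit of 30 percentage points, were chosen after the values were seen. No test was made, since each group has 1 library. Besides the 9 RNAs, the genes named were the 3 with the largest ratio in each of 14 gene lists among those listed in all 6 libraries and the 2 nearest to each RNA. H19, Snhg8, Snhg10, Dlk1, Peg10, Zdbf2, Gm37376, S100a8, S100a9, Ptprc, Ly6c2 and markers listed in no library were named after their values were seen. The RNAs and lists were chosen with earlier results of these data known. In all, 10 other settings, and 1 more added after the data were seen, were computed. The steps were tested on simulated data. The work used matplotlib 3.10.9, numpy 2.4.6, scipy 1.17.1 and pandas 2.3.3 under Python 3.11.15. One gene of the marker lists is not reported here.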

Additional observations from a re-analysis of the deposited data

How the results depend on the processing

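Of the 3 ratios of 2-fold or more (Snhg1 at day 1 and day 14, Gas5 at day 14), all 3 stayed past the threshold under 8 of the 10 other settings. These were summed start events only, events inside the annotated span only, a pseudocount of 0.01 or 1, no filter, at least 5 FPKM, scaling by the median ratio to control, and genes listed in both libraries only. Most of these 8 could not change the 3 ratios. The settings on filters and listing alter only which genes are compared. Summed starts already gave these values, and all of the FPKM lay inside the annotated span. The pseudocounts and the scaling did change the ratios, the lowest being 1.08 for Gas5 at day 14 with scaling. With the length correction 2 of 3 stayed past the threshold, so that 1 of the 7 RNAs was 2-fold higher at day 14. With summed end events only, Snhg1 and Mirg have no usable value and Gas5 at day 14 stood at 1.43, but the single end of Meg3, at 1.72 FPKM in the control, gave ratios of 5.25, 3.91, 4.19, 2.45 and 2.00, Rian stood at 0.95 at day 3 (-0.41 as reported) and 1.14 at day 28 (0.17), and the number of the RNAs 2-fold higher became 2, 1, 1 and 2 at day 1, 3, 7 and 28. The listed ends of Rian held at most 2.48 FPKM in any library and lie upstream of its main starts. The end of Meg3 covers only part of its transcripts, since its summed starts were 214 FPKM in the control. If only loci under an RNA's own Ensembl identifier are used, a setting added after the data were seen, 2 of the 9 have a value and 0 were 2-fold higher at day 1 and at day 14.

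The counts over all genes depend on the low values. With a pseudocount of 1, 376, 622, 659, 691 and 241 genes were 2-fold higher on days 1, 3, 7, 14 and 28, and 298, 174, 147 and 183 lower at day 1, 3, 7 and 28. Without a filter 1307, 1903, 2003, 1822 and 1114 were higher and 1142, 743, 657, 1416 and 859 lower, and with at least 5 FPKM 241, 336, 361, 429 and 140 higher and 150, 118, 108, 306 and 99 lower. With summed starts only, 881, 1911 and 517 were lower at day 1, 14 and 28, and with genes listed in both libraries only, 538 were lower at day 14. No replicate could be left out and no paired analysis was possible because each group has 1 library.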
